A study of Mus musculus with 2 samples.

Results

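The genes described here are 9 genes of iron binding and iron handling in the mouse mammary gland, found by symbol among the 31053 genes of the deposited table: Ltf, Lcn2, Trf, Tfrc, Fth1, Ftl1, Slc40a1, Slc11a2 and Hmox1. Single mammary cells were profiled by 3′ single-cell RNA-seq in 1 library per group, so no test between groups was possible. The cKO library came from mice that carried a tamoxifen-inducible Cre under the keratin 8 promoter together with a floxed microRNA locus on both alleles (K8-CreERT2;miR-200c/141-flox/flox). The Ctrl library came from mice with the floxed alleles and no Cre (miR-200c/141-flox/flox). Mice of both groups were C57BL/6, received tamoxifen at 8 to 10 weeks of age and gave glands 4 weeks later, although the labels also state an age of 8 weeks. Cells were enriched by FACS, with no gate named and no number of pooled mice given. Keratin 8 is a keratin of luminal cells, so the Cre was directed at the luminal layer. No gene of the table was named for either microRNA, so the deletion itself could not be checked here.

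Iron travels in body fluids bound to transferrin (Trf) and enters cells through the transferrin receptor (Tfrc) and the endosomal transporter DMT1 (Slc11a2). Inside the cell it is stored in ferritin, a shell of heavy and light chains (Fth1, Ftl1), and it is released from heme by heme oxygenase 1 (Hmox1). It leaves the cell through ferroportin (Slc40a1). Lactoferrin (Ltf) binds iron directly and lipocalin 2 (Lcn2) binds bacterial siderophores, the small molecules with which microbes take up iron. Both are secreted defence proteins of milk and of neutrophils. When iron is scarce, iron regulatory proteins bind hairpins called iron-responsive elements, which block translation from the 5′ UTR of ferritin and ferroportin messages and protect the transferrin receptor message from decay at its 3′ UTR.

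The hairpins and the microRNAs that were deleted are shown because iron sensing and microRNAs are known to act on messages through such sequences. Sequences are written 5′ to 3′ in the sense of the transcript, from GRCm38 with the GENCODE M21 annotation. Capitals mark the 6-base loop of a match, which needed the loop CAGTGN, 5 bases before it that pair with the 5 after it (G-T pairs allowed) and a C just before that stem, searched on the transcript strand.
Tfrc, 3′ UTR, chr16:32631220-32631246, plus strand: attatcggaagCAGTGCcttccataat
Tfrc, 3′ UTR, chr16:32631599-32631625, plus strand: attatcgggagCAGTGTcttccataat
Tfrc, 3′ UTR, chr16:32631664-32631690, plus strand: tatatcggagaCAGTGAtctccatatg
Tfrc, 3′ UTR, chr16:32631711-32631737, plus strand: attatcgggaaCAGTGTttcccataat
Fth1, 5′ UTR, chr19:9982733-9982759, plus strand: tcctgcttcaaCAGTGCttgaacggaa
Ftl1, 5′ UTR, chr7:45459780-45459806, minus strand: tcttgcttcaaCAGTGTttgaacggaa
Slc40a1, 5′ UTR, chr1:45925466-45925492, minus strand: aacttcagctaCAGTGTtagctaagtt
The pattern was present in 0.637% of the 21186 longest annotated 3′ UTRs and in 0.104% of 21200 5′ UTRs. The Tfrc 3′ UTR held it 4 times. The other 5 genes had no match in the UTRs searched, which says only that these letters were not there.

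The deleted microRNAs, from RefSeq (GRCm38.p6), are printed with their seed, bases 2 to 8, in capitals, because the seed is the part that pairs with a message.
miR-200c-3p, chr6:124718324-124718346, minus strand: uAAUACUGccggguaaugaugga
miR-141-3p, chr6:124717917-124717938, minus strand: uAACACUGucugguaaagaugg
A 7-base match to the miR-200c-3p seed (CAGTATT) was in none of the 9 longest 3′ UTRs, against 13.8% of all 3′ UTRs. A match to the miR-141-3p seed (CAGTGTT) was in the Tfrc 3′ UTR alone among the 9, against 17.9% of all. Tfrc held it at 2 places, of which the first covers the loop of its last hairpin above and the base after it. The loop letters and the seed match overlap there. The second, with the match in capitals, reads as follows.
Tfrc, 3′ UTR, chr16:32632351-32632380, plus strand: tcccttcagtcttcaCAGTGTTtctcttgt
In the 5′ UTRs of Ftl1 and Slc40a1 the hairpin loop and the base after it likewise spelled the miR-141-3p match. A match was in 2.16% of all 5′ UTRs.

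After filtering, 5438 cKO cells with a median of 13905 UMIs (unique molecular identifiers, each a counted RNA molecule) and 3389 Ctrl cells with a median of 19799 UMIs were used. Cells were sorted into classes by marker genes that include none of the 9, and 92 cKO and 35 Ctrl progenitors lay within 0.1 of the hormone-sensing cut (mean log level). Luminal progenitors, the secretory-lineage luminal cells, numbered 1098 in cKO and 650 in Ctrl, hormone-sensing luminal cells 1198 in cKO and 541 in Ctrl, and basal (myoepithelial) cells 956 in cKO and 1069 in Ctrl. A deeper class with the markers of both luminal kinds held 1469 cKO cells with a median of 27536 UMIs and 949 Ctrl cells with a median of 47161. Whether pairs of cells are among them was not tested. Progenitor markers summed to 8525 CPM (UMIs per 1000000 UMIs of the class) in cKO progenitors and 6342 CPM in Ctrl progenitors, against 104 CPM in cKO and 118 CPM in Ctrl hormone-sensing cells. Markers of high endothelial venules, the lymphocyte-entry vessels of lymph nodes, were also counted in progenitor, hormone-sensing and basal cells. They summed to 160 to 223 CPM in the cKO and 28.5 to 30.9 CPM in the Ctrl classes. Whether these UMIs came from the cells or from RNA outside them was not tested. The part of RNA from outside the cells in the results was not tested either. The libraries shared 6 barcodes. In a clustering made without the 9 genes, most classes lay in different clusters in each library. Hormone-sensing cells were mainly in cluster 8 (1088 cKO and 0 Ctrl cells) and cluster 12 (3 cKO and 532 Ctrl), and cells with both luminal sets in cluster 0 (1443 cKO and 4 Ctrl) and cluster 13 (0 cKO and 907 Ctrl). Basal cells were in cluster 7 (884 cKO and 62 Ctrl) and cluster 5 (106 cKO and 1021 Ctrl), while the progenitor clusters 2 (623 cKO and 479 Ctrl) and 3 (510 cKO and 240 Ctrl) held both libraries. A difference between libraries in those 3 classes therefore cannot be told apart from one between whole clusters.

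Trf, the gene for the iron carrier transferrin (chr9:103204001-103230444, minus strand), was lower in cKO in progenitors, basal cells and the class with both luminal sets, and scarce in hormone-sensing cells. In progenitors, basal cells and the class with both luminal sets its ratio was the farthest from 1 among the 9 genes. In luminal progenitors Trf stood at 727 CPM in cKO (12043 UMIs, 95% exact Poisson interval 714 to 740) and at 2377 CPM in Ctrl (36453 UMIs, 2352 to 2401), which is 3.27-fold lower in cKO (interval of the ratio 3.20 to 3.34). All intervals are exact, at 95%, and cover counting error only, not the spread between mice. In the class with both luminal marker sets Trf was at 309 CPM in cKO and 1172 CPM in Ctrl, 3.8-fold lower (3.73 to 3.87). In basal cells it was at 103 CPM in cKO and 459 CPM in Ctrl, 4.44-fold lower (4.12 to 4.78). The difference ran through the whole progenitor population and not a few cells: the median progenitor had 4.27 Trf UMIs per 10000 in cKO and 19.0 in Ctrl, and the 90th percentile was 20.4 in cKO and 55.2 in Ctrl. With each cell thinned to 1000 UMIs, 40.3% of cKO progenitors (37.3 to 43.2) and 72.5% of Ctrl progenitors (68.9 to 75.9) held a Trf UMI. Without thinning the shares were 78.3% in cKO and 96.0% in Ctrl. Trf overlaps Gm20425 on the same strand, a gene with no UMI in either library. In basal cells the thinned shares were 8.70% in cKO and 32.9% in Ctrl, against 3.20% in cKO and 0 of 58 cells in Ctrl blood endothelium, where a count of 0 allows up to 5.17%. Blood endothelial cells had 21.1 CPM in cKO (37 UMIs) and 12.4 CPM in Ctrl (11 UMIs), and that ratio of 1.70 has an interval of 0.849 to 3.69. In hormone-sensing cells Trf was at 15.9 CPM in cKO and 41.2 CPM in Ctrl, 2.59-fold lower (2.23 to 3.02). There 50% of its UMIs lay in 10 of 1198 cKO cells and 7 of 541 Ctrl cells. The thinned shares of 0.921% in cKO and 2.78% in Ctrl stand beside the blood endothelial shares of 3.20% in cKO and 0 of 58 cells in Ctrl. The cKO share is thus at background, and the Ctrl share is within the limit that 0 of 58 allows, although the Ctrl level of 41.2 CPM (37.7 to 44.9) was above the 12.4 CPM (6.21 to 22.2) of Ctrl blood endothelium. With classes from clusters the log2 ratio was −0.50, against −1.37.

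Hmox1 (chr8:75093621-75100589, plus strand), which encodes the enzyme that opens the heme ring and frees its iron, was also lower in cKO in each epithelial class. In luminal progenitors it was at 741 CPM in cKO and 1468 CPM in Ctrl, 1.98-fold lower (1.94 to 2.03). In hormone-sensing cells it was at 115 CPM in cKO and 323 CPM in Ctrl, 2.81-fold lower (2.66 to 2.97). In the class with both luminal sets it was at 351 CPM in cKO and 769 CPM in Ctrl, 2.19-fold lower (2.15 to 2.23). Basal cells had the highest epithelial level, 4720.2 CPM in cKO and 9794 CPM in Ctrl, 2.07-fold lower (2.05 to 2.10). The basal distributions were shifted as a whole, with medians of 40.9 UMIs per 10000 in cKO and 94.6 in Ctrl and 10th percentiles of 4.03 in cKO and 21.9 in Ctrl. The thinned share of basal cells with an Hmox1 UMI was 83.6% in cKO and 95.1% in Ctrl, and in progenitors it was 36.8% in cKO and 56.3% in Ctrl. Blood endothelium had 8731 CPM in cKO and 10719.9 CPM in Ctrl, a ratio of 0.814 (0.794 to 0.836), and other classes outside the epithelium had lower levels in cKO too: 1581 CPM in cKO and 4212 CPM in Ctrl high endothelial venule cells, 2419 CPM in 93 cKO and 8950 CPM in 8 Ctrl lymphatic cells, and 1065 CPM in 39 cKO and 2600 CPM in 13 Ctrl stromal cells.

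**Figure D1:**
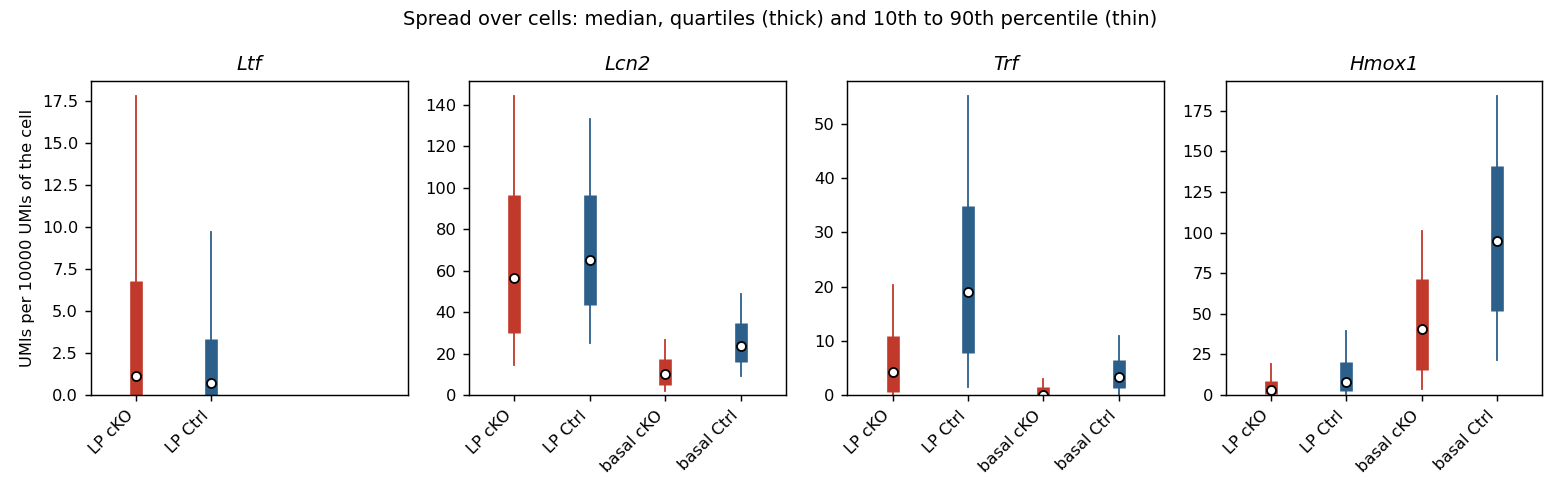
UMIs per 10000 UMIs of each cell for Ltf, Lcn2, Trf and Hmox1 in luminal progenitors (LP) and basal cells of the cKO (red) and Ctrl (blue) libraries; circles are medians, thick bars quartiles and thin bars the 10th to 90th percentile over cells. For Trf the cKO progenitor median of 4.27 lies below the lower quartile of Ctrl (7.75), whereas the Lcn2 bars of progenitors overlap over most of their length. Basal Ltf is not drawn because of its low count.

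The chains of ferritin, the storage shell, differed by class. Ftl1, the light chain, was at 2416 CPM in cKO and 3413 CPM in Ctrl progenitors (1.41-fold lower, 1.39 to 1.43). It was at 855 CPM in cKO and 1264 CPM in Ctrl hormone-sensing cells (1.48-fold lower, 1.44 to 1.51) and at 4189 CPM in cKO and 7254 CPM in Ctrl basal cells (1.73-fold lower, 1.71 to 1.75). Fth1, the heavy chain with the ferroxidase site, was nearly level in progenitors, at 5234 CPM in cKO and 5079 CPM in Ctrl, a ratio of 1.03 (1.02 to 1.04). In hormone-sensing cells Fth1 was at 3181 CPM in cKO and 4948 CPM in Ctrl, 1.56-fold lower (1.54 to 1.57). In basal cells it was at 13049 CPM in cKO and 18199.8 CPM in Ctrl, 1.39-fold lower (1.38 to 1.41). In blood endothelium Fth1 was at 7515 CPM in cKO and 7554 CPM in Ctrl, a ratio of 0.995 (0.966 to 1.02). Ftl1 has a near copy, Ftl1-ps1, in the table, and Fth1 has 6 related genes named Fthl17a to Fthl17f. How the authors' counting treated reads that fit more than 1 of these genes was not checked.

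Ltf (chr9:111019271-111042767, plus strand) was the single member at least 1.5-fold higher in cKO progenitors, and outside the progenitor-marked classes it was scarcely detected. In luminal progenitors Ltf was at 637 CPM in cKO (625 to 649) and 389 CPM in Ctrl (379 to 399), 1.64-fold higher (1.59 to 1.69). In the class with both luminal sets it was at 280.05 CPM in cKO and 170 CPM in Ctrl, 1.65-fold higher (1.60 to 1.69). Lactoferrin message was unevenly spread over progenitors: 75 of 1098 cKO cells (6.83%) and 39 of 650 Ctrl cells (6.00%) held 50% of its UMIs. The median progenitor had 1.16 UMIs per 10000 in cKO and 0.741 in Ctrl. A single Ctrl progenitor held 5.28% of the Ctrl progenitor UMIs of Ltf. The thinned share with an Ltf UMI was 28.0% in cKO (25.3 to 30.7) and 21.5% in Ctrl (18.4 to 24.9). These intervals are over the cells of 1 library each. Without thinning the shares were 61.6% in cKO and 61.2% in Ctrl. The neutrophil marker list, given because neutrophils also make lactoferrin, summed to 61.6 CPM in cKO progenitors, with 2 of 5 markers at 0, and to 25.9 CPM in Ctrl progenitors, with 3 of 5 at 0. S100a8 made up 60.4 CPM of that sum in cKO and 23.2 CPM in Ctrl, while Csf3r, the receptor for the neutrophil growth factor, had 1 UMI in cKO and 0 in Ctrl, and Retnlg had 0 in both. The part of neutrophil RNA in the Ltf difference was not tested further. Ltf in hormone-sensing cells, at 8.95 CPM in cKO and 5.67 CPM in Ctrl, rested on 3 of 1198 cKO cells for 50% of its UMIs. Its log2 ratio of 0.66 was 0.58, short of 1.5-fold, in cells with at most 5% mitochondrial UMIs. Basal cells had 17 Ltf UMIs in cKO and 18 in Ctrl, a ratio of 1.55 with an interval of 0.752 to 3.19. The thinned shares of 0.314% in cKO and 0.282% in Ctrl are background. Without the 10 cells of each library with the most Ltf the log2 ratio of 0.63 turned to −0.28.

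Lcn2 (chr2:32384633-32388252, minus strand) was nearly level between the libraries in progenitors and lower in cKO in basal cells. Its level was 7337 CPM in cKO and 7579 CPM in Ctrl progenitors, a ratio of 0.968 (0.960 to 0.976). The 10th percentile over progenitors was 14.6 UMIs per 10000 in cKO and 25.3 in Ctrl, while the upper quartile was 96.6 in cKO and 96.7 in Ctrl. The distributions thus lay apart at their low ends and together at their upper quartiles. In basal cells Lcn2 was at 1393 CPM in cKO and 2736 CPM in Ctrl, 1.96-fold lower (1.92 to 2.01), with thinned shares of 59.7% in cKO and 86.1% in Ctrl. In hormone-sensing cells it was at 105 CPM in cKO and 334 CPM in Ctrl, 3.17-fold lower (3.0 to 3.36), and 18 cKO cells and 19 Ctrl cells held 50% of these UMIs. The thinned hormone-sensing shares of 5.78% in cKO and 15.6% in Ctrl stand beside 7.20% in cKO and 5.17% in Ctrl blood endothelium, so the cKO share is at background. Blood endothelial Lcn2 was at 108 CPM in cKO (189 UMIs) and 46.3 CPM in Ctrl (41 UMIs), 2.33-fold higher (1.65 to 3.35). In cKO 4 of 125 cKO cells held 50% of the cKO UMIs, and the log2 ratio was −0.12 when cells with low levels of another class's markers were left out.

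Of the import and export genes, Tfrc and Slc11a2 were within 1.5-fold in progenitors, hormone-sensing and basal cells, and Slc40a1 was counted by few UMIs. Tfrc, the transferrin receptor, was at 22.0 CPM in cKO (364 UMIs) and 22.0 CPM in Ctrl (337 UMIs) in progenitors, a ratio of 1.0 (0.860 to 1.16). It was at 47.0 CPM in cKO and 43.9 CPM in Ctrl basal cells, a ratio of 1.07 (0.935 to 1.22). It was at 10.8 CPM in cKO and 9.75 CPM in Ctrl hormone-sensing cells, a ratio of 1.11 (0.878 to 1.41). Slc11a2, the endosomal iron transporter, was at 25.8 CPM in cKO and 30.6 CPM in Ctrl progenitors (ratio 0.845, 0.739 to 0.965). It was at 12.9 CPM in cKO and 9.27 CPM in Ctrl hormone-sensing cells (ratio 1.39, 1.10 to 1.76) and at 24.3 CPM in cKO and 19.3 CPM in Ctrl basal cells (1.25, 1.03 to 1.52). It shares its locus with the opposite-strand gene Gm5475, and the strand setting of the counting is not given in the sources used here. Slc40a1, the iron exporter of vertebrate cells, had 57 UMIs (3.44 CPM) in cKO and 44 (2.87 CPM) in Ctrl progenitors, a ratio of 1.20 (0.795 to 1.82). It had 13 UMIs in cKO and 26 in Ctrl hormone-sensing cells, 2.64-fold lower (1.31 to 5.60), and 7 in cKO and 33 in Ctrl basal cells, 2.87-fold lower (1.25 to 7.68).

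Read against all genes, the members' counts were as follows, a member counting as higher or lower when its ratio passed 1.5-fold with at least 20 UMIs over both libraries. In progenitors 1 of 9 members was higher in cKO (Ltf) and 2 lower (Trf, Hmox1), where 7.3% of 11844 genes were higher and 13.1% lower. In hormone-sensing cells 1 was higher (Ltf) and 5 lower (Lcn2, Trf, Fth1, Slc40a1, Hmox1), where 14.2% of all genes were higher and 17.4% lower. Among these members, Ltf rested on few cells and Slc40a1 on 13 UMIs in cKO and 26 in Ctrl. The cKO shares of Trf and Lcn2 were at background, and Trf was short of 1.5-fold with classes from clusters (log2 ratio −0.50). In the class with both luminal sets 1 was higher (Ltf) and 3 lower (Trf, Ftl1, Hmox1), against 11.5% of all genes higher and 17.2% lower. There Ftl1 was short of 1.5-fold under TMM scaling (log2 ratio −0.50, against −0.62). In basal cells 1 was higher (Ltf, on 17 UMIs in cKO and 18 in Ctrl) and 5 lower (Lcn2, Trf, Ftl1, Slc40a1, Hmox1), against 9.51% higher and 9.17% lower over all genes. Basal Slc40a1 rested on 7 UMIs in cKO and 33 in Ctrl. Of the 7 members with enough UMIs in blood endothelium, 2 were higher (Lcn2, Trf) and 0 lower, against 17.6% of genes higher and 9.26% lower. The median log2 ratio over the 9 members was −0.05 in progenitors, −0.64 in hormone-sensing cells and −0.79 in basal cells, beside −0.11, −0.07 and 0.03 over all genes.

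**Figure D2:**
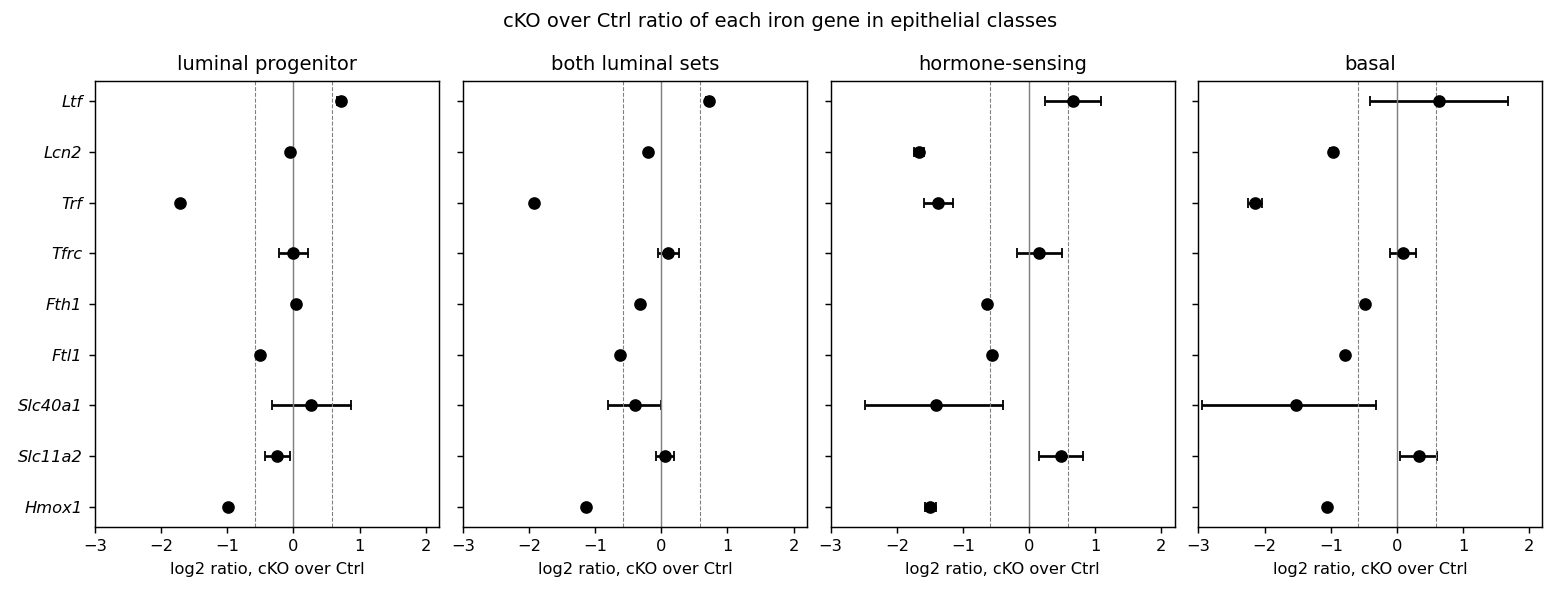
Log2 ratio of cKO over Ctrl for each of the 9 genes in 4 epithelial classes, with 95% counting intervals; the solid line marks no difference and the dashed lines 1.5-fold. Trf and Hmox1 lie left of the lower dashed line in all 4 panels, Tfrc lies near 0 in all 4, and the widest bars are those of Slc40a1 and of basal Ltf, which rest on few UMIs.

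The order of the classes differed by gene and is given over classes with at least 40 cells in a library, which leaves out stroma and the 8 Ctrl lymphatic cells. Ltf was highest in progenitors, then in the class with both luminal sets, and at most 8.95 CPM in hormone-sensing, basal, blood endothelial and high endothelial venule cells. Among the last 3 of these classes the intervals overlapped in each library. Trf and Lcn2 were also highest in progenitors in each library, followed by the class with both luminal sets and then by basal cells; the 39 stromal cells of cKO, outside this order, had 465 CPM of Trf. Tfrc was highest in basal cells in each library, and the intervals of blood endothelial cells and progenitors overlapped. Fth1 was highest in Ctrl basal cells at 18199.8 CPM, while in cKO its highest level was in lymphatic endothelium at 17259 CPM (93 cells), above 13049 CPM in basal cells. The 8 Ctrl lymphatic cells, outside the order, had 20416 CPM. Hmox1 was highest in blood endothelium, then basal cells, in each library, and lowest in hormone-sensing cells. Slc40a1 was highest in the 93 lymphatic endothelial cells of cKO, at 22.3 CPM on 24 UMIs (14.3 to 33.1), a level whose interval lies above that of every other class drawn. These UMIs lay in 5 of the 93 cells, and 0 of 93 held one after thinning, which allows a share of up to 3.23%. The 8 Ctrl lymphatic cells are too few to set beside it.

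**Figure D3:**
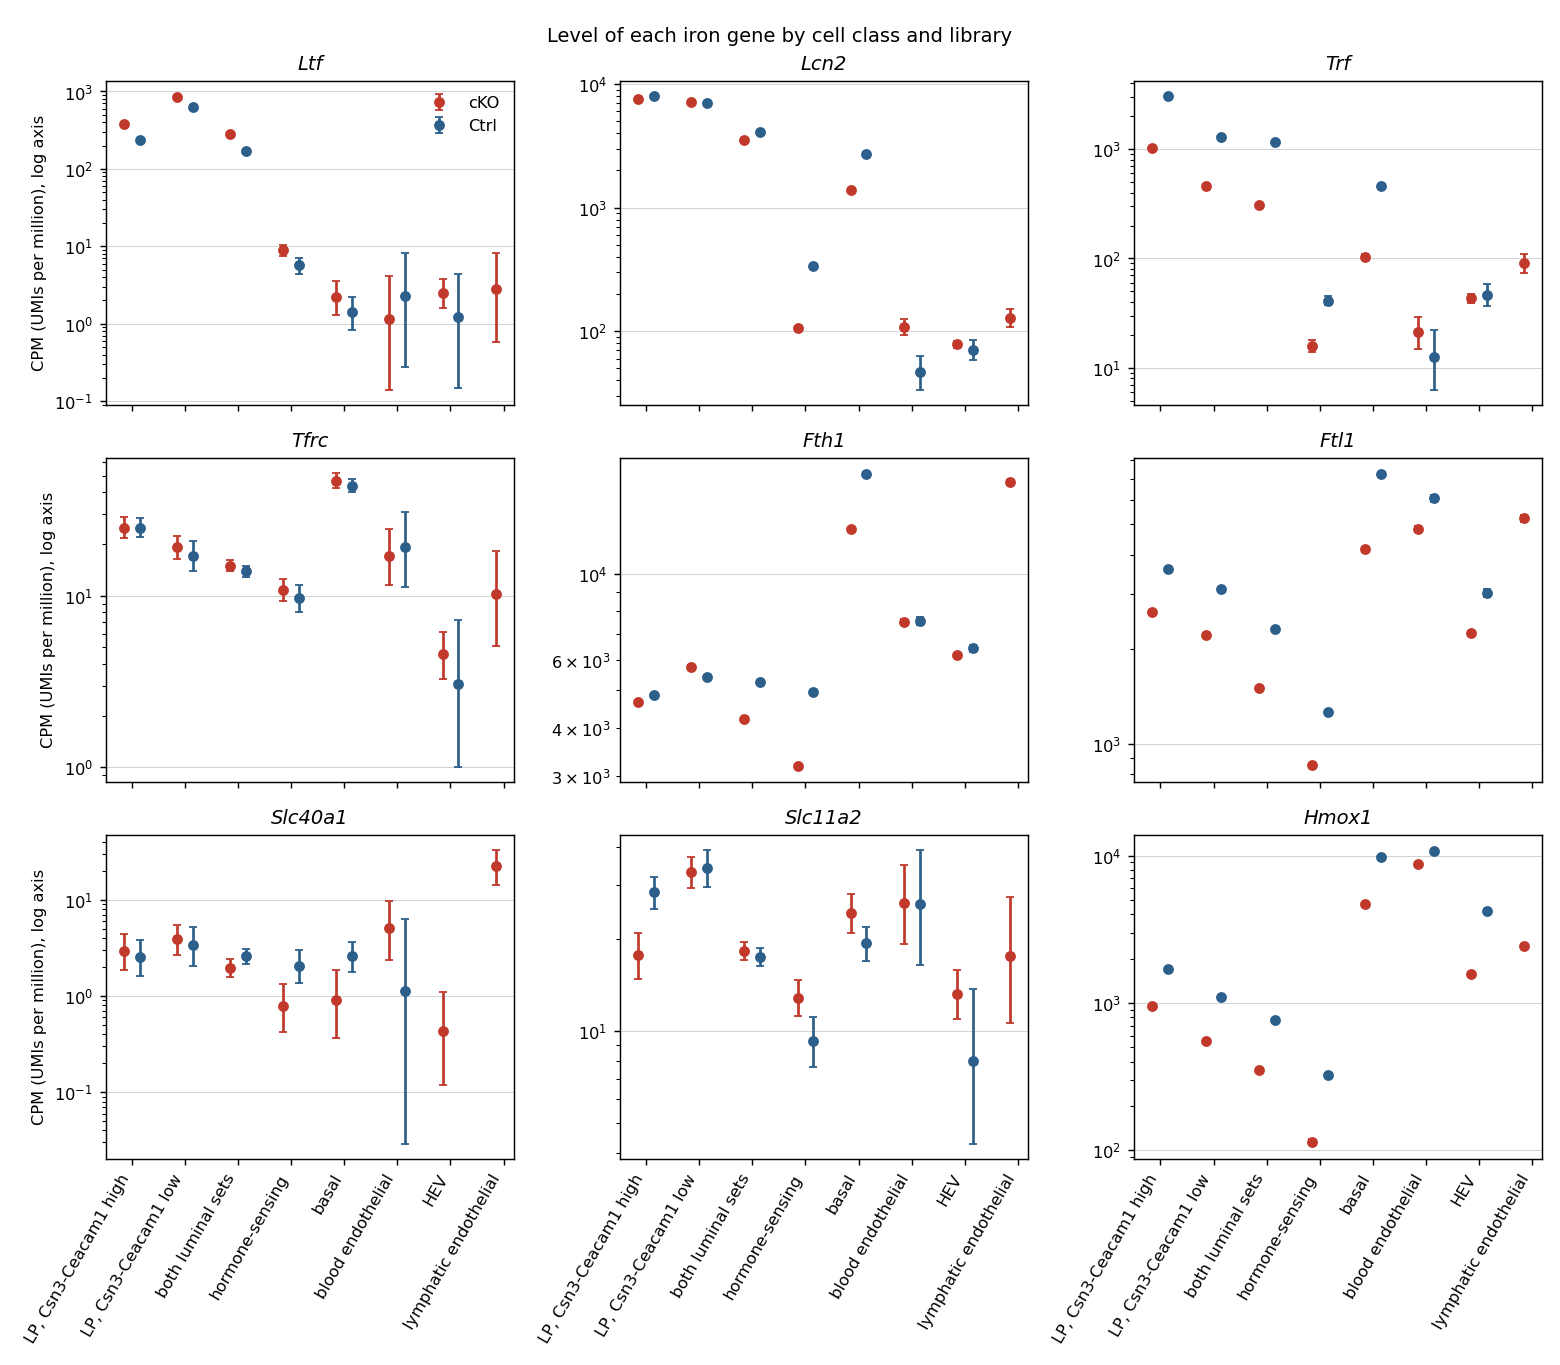
Level of each of the 9 genes in CPM (log axis) in 8 cell classes of the cKO (red) and Ctrl (blue) libraries, with luminal progenitors (LP) divided into the states high and low in Csn3 and Ceacam1; bars are 95% Poisson intervals and cover counting error only. A class with fewer than 40 cells in a library or with no UMI of the gene is not drawn, and Ltf is near 1 to 10 CPM outside the 3 classes with progenitor markers, where it exceeds 100 CPM.

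Luminal progenitors were then divided at the median of their mean log level of Csn3, a milk casein gene, and Ceacam1, a cell adhesion gene, neither of them a member. The high state held 501 cKO and 373 Ctrl cells and the low state 597 cKO and 277 Ctrl cells. The division is a cut at a median, and whether the states are separate types was not tested. The 2 marker genes were taken from earlier results of these data, in which a Csn3-Ceacam1-high state was set apart from an Ltf-high state. The direction of Ltf between the states was thus known beforehand and is a description only, also with Csn3 or Ceacam1 alone. Within 0.1 of the median lay 97 cKO and 62 Ctrl progenitors. Ltf was lower in the high state in each library. It was at 386 CPM in high and 861 CPM in low cKO progenitors, a ratio of 0.448 (0.429 to 0.468). It was at 237 CPM in high and 632 CPM in low Ctrl progenitors, 0.375 (0.355 to 0.395). Of all genes, 15.7% in cKO and 10.4% in Ctrl were at least 1.5-fold lower in the high state, and 4.01% in cKO and 5.07% in Ctrl were at least 1.5-fold higher. Among the 9 members, 1 was lower (Ltf) and 2 were higher (Trf, Hmox1) in both libraries. Ltf stayed lower in the high state when cells were divided by Csn3 alone (ratios of 0.421 in cKO and 0.331 in Ctrl), by Ceacam1 alone (0.724 in cKO and 0.782 in Ctrl) and by the 2 progenitor clusters found without the members (0.431 in cKO and 0.596 in Ctrl). With Ceacam1 alone the Ltf difference was short of 1.5-fold in both libraries. The thinned share of cells with an Ltf UMI was 19.8% in high and 33.7% in low cKO progenitors, and 14.5% in high and 27.4% in low Ctrl progenitors.

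Trf and Hmox1 ran the other way from Ltf in this division. Trf was at 1025 CPM in high and 462 CPM in low cKO progenitors, a ratio of 2.22 (2.14 to 2.30). It was at 3053 CPM in high and 1295 CPM in low Ctrl progenitors, 2.36 (2.30 to 2.42). For Trf the ratio depended on the division. With Csn3 alone the ratios were 2.50 in cKO and 3.09 in Ctrl, with Ceacam1 alone 1.13 in cKO and 0.902 in Ctrl, and with the clusters 1.17 in cKO and 0.782 in Ctrl. Hmox1 was at 953 CPM in high and 552 CPM in low cKO progenitors (ratio 1.73, 1.67 to 1.79). It was at 1703 CPM in high and 1091 CPM in low Ctrl progenitors (ratio 1.56, 1.52 to 1.61). With Ceacam1 alone the ratios were 1.23 in cKO and 1.24 in Ctrl. Lcn2 hardly differed by both marker genes together, with ratios of 1.05 in cKO and 1.15 in Ctrl, but its direction depended on the division. With Csn3 alone the Lcn2 ratios were 1.06 in cKO and 1.24 in Ctrl. With Ceacam1 alone they were 0.951 in cKO and 0.834 in Ctrl, and with the clusters 0.751 in cKO and 0.753 in Ctrl. The high over low ratio of Fth1 was 0.81 in cKO and 0.90 in Ctrl by both marker genes together, but 0.655 in cKO and 0.621 in Ctrl by Ceacam1 alone and 0.563 in cKO and 0.495 in Ctrl by the clusters. Slc11a2 was at 17.7 CPM in high and 33.1 CPM in low cKO progenitors, a ratio of 0.535 (0.433 to 0.657). It was at 28.4 CPM in high and 34.1 CPM in low Ctrl progenitors, 0.834 (0.692 to 1.01).

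**Figure D4:**
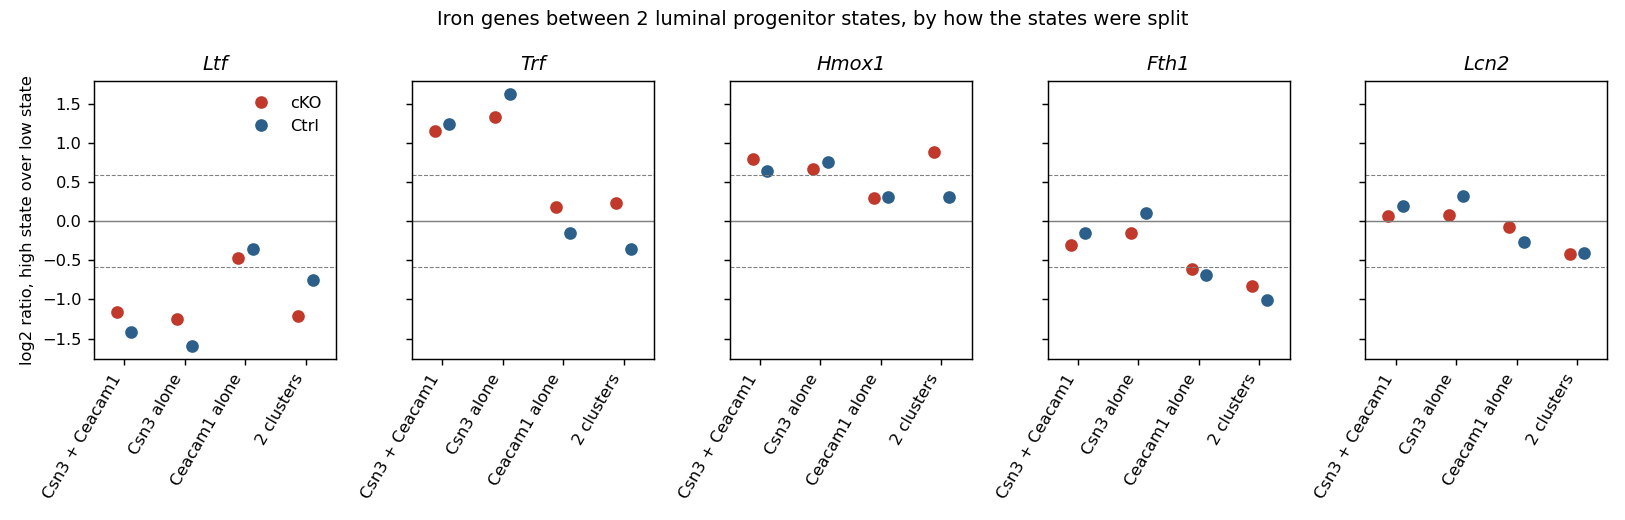
Log2 ratio of the high over the low luminal progenitor state for Ltf, Trf, Hmox1, Fth1 and Lcn2 in the cKO (red) and Ctrl (blue) libraries, under 4 ways of dividing the cells; dashed lines mark 1.5-fold. Ltf lies below 0 in all 8 points, whereas Trf is above 1 with Csn3 in the division and near 0 with Ceacam1 alone or with the clusters.

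Within each state the differences of Ltf, Trf and Hmox1 between libraries had the direction seen in all progenitors. In the high state Ltf was at 386 CPM in cKO and 237 CPM in Ctrl, 1.63-fold higher (1.54 to 1.72), where 5.89% of genes were higher and 17.1% lower. In the low state it was at 861 CPM in cKO and 632 CPM in Ctrl, 1.36-fold higher (1.31 to 1.42), below the 1.5-fold mark, where 7.42% of genes were higher and 11.8% lower. Trf was 2.98-fold lower in the high and 2.80-fold lower in the low state in cKO, and Hmox1 1.79-fold lower in the high and 1.98-fold lower in the low state. Slc11a2, within 1.5-fold over all progenitors, was at 17.7 CPM in cKO (138 UMIs) and 28.4 CPM in Ctrl (268 UMIs) in the high state, 1.61-fold lower, and at 33.1 CPM in cKO and 34.1 CPM in Ctrl in the low state, a ratio of 0.971 (0.809 to 1.17). Low-state cells were 597 of 1098 progenitors in cKO and 277 of 650 in Ctrl. The part of that make-up in the Ltf difference over all progenitors was not tested further.

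Further genes of iron and heme metabolism were taken from lists, whose counts stand beside 7.3% of all genes higher and 13.1% lower in progenitors, 14.2% higher and 17.4% lower in hormone-sensing cells, and 9.51% higher and 9.17% lower in basal cells. Of the 10 genes of the Nrf2 and Bach1 axis, built round the transcription factors that switch Hmox1 on and off, 4 were lower and 0 higher in cKO progenitors (Gclm, Gclc, Txnrd1, Slc7a11). In cKO basal cells 5 were lower and 0 higher (Nqo1, Gclm, Gclc, Srxn1, Slc7a11). Their median log2 ratio was −0.50 in progenitors and −0.55 in basal cells, beside −0.11 and 0.03 over all genes. Slc7a11, the cystine importer, was at 66.0 CPM in cKO and 125 CPM in Ctrl progenitors (1.90-fold lower, 1.76 to 2.04) and at 76.0 CPM in cKO and 180 CPM in Ctrl basal cells (2.37-fold lower, 2.17 to 2.60). Gclc and Gclm, the subunits of the enzyme that starts glutathione synthesis, were 1.59-fold and 1.70-fold lower in cKO progenitors, and Gclc was 1.79-fold lower in cKO basal cells. Srxn1, which repairs peroxiredoxins, was at 95.8 CPM in cKO and 191 CPM in Ctrl basal cells, 2.0-fold lower (1.84 to 2.17). In hormone-sensing cells the same list had 1 gene higher (Nqo1, on 33 UMIs in cKO and 4 in Ctrl) and 1 lower (Srxn1), and its median of −0.06 was close to −0.07 over all genes.

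The sensing and mitochondrial lists held few differences. None of the 6 genes of iron sensing and ferritin turnover, among them the iron regulatory proteins Aco1 and Ireb2, passed 1.5-fold in progenitors, hormone-sensing cells or basal cells. Ireb2 was at 12.3 CPM in cKO and 16.6 CPM in Ctrl progenitors, 1.35-fold lower (1.12 to 1.63). Of 9 genes of mitochondrial iron and iron-sulfur cluster assembly, 0 passed in progenitors or hormone-sensing cells. In basal cells Slc25a37, for the mitochondrial iron importer, was at 23.2 CPM in cKO and 14.9 CPM in Ctrl (1.56-fold higher, 1.26 to 1.92).

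In hormone-sensing cells several further genes of iron uptake, export and heme had ratios far from 1. Hamp, for the iron hormone hepcidin, had 519 UMIs in cKO and 22 in Ctrl hormone-sensing cells, a level of 31.4 CPM in cKO and 1.76 CPM in Ctrl, 17.9-fold higher (11.7 to 28.8). It had 51 UMIs in cKO and 5 in Ctrl progenitors (9.44-fold higher, 3.79 to 30.3) and 71 in cKO and 39 in Ctrl basal cells (2.99-fold higher, 2.0 to 4.54). It overlaps the opposite-strand RNA gene Gm44662. Blood endothelial cells, which should lack it, had 24.6 CPM in cKO (43 UMIs) and 1.13 CPM in Ctrl (1 UMI). The part of RNA from outside the cells in the Hamp difference was not tested. Hamp2, a near copy of Hamp, had at most 1 UMI in these classes, and how reads that fit both copies were counted was not checked. Slc39a14, the ZIP14 importer of iron not bound to transferrin, was at 3.63 CPM in cKO and 129 CPM in Ctrl hormone-sensing cells, 35.6-fold lower (27.5 to 46.9), and 1.92-fold lower in cKO progenitors. Steap4, a metalloreductase, was at 32.2 CPM in cKO and 119 CPM in Ctrl hormone-sensing cells, 3.70-fold lower (3.35 to 4.09). The ferroxidases Cp (ceruloplasmin) and Heph (hephaestin) were 2.53-fold and 3.24-fold lower in cKO hormone-sensing cells. Hpx, for the heme scavenger hemopexin, had 5 UMIs in cKO and 156 in Ctrl hormone-sensing cells, 41.2-fold lower (17.3 to 129). Hp, for haptoglobin, was at 21.6 CPM in cKO and 130.1 CPM in Ctrl progenitors, 6.04-fold lower (5.39 to 6.78). By list, 4 of 8 measured genes of systemic iron and uptake were higher in cKO hormone-sensing cells (Hamp, Steap1, Steap2, Lrp1) and 2 lower (Steap4, Slc39a14), where 14.2% of all genes were higher and 17.4% lower. In progenitors the uptake list had 2 of 10 measured genes higher (Hfe, Hamp) and 1 lower (Slc39a14), and in basal cells 2 of 10 higher (Hamp, Steap3) and 1 lower (Slc22a17). The heme list had 0 of 16 measured genes higher and 2 lower in progenitors (Flvcr1, Hp), and 0 of 16 higher and 2 lower in basal cells (Uros, Flvcr1), near the 13.1% of all genes lower in progenitors and the 9.17% in basal cells. Heph had 15 UMIs in cKO and 21 in Ctrl progenitors, a ratio of 0.661 (0.317 to 1.35), and 15 in cKO and 41 in Ctrl basal cells, a ratio of 0.601 (0.309 to 1.11), intervals that include no difference, and Cp was within 1.5-fold in both classes.

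**Figure D5:**
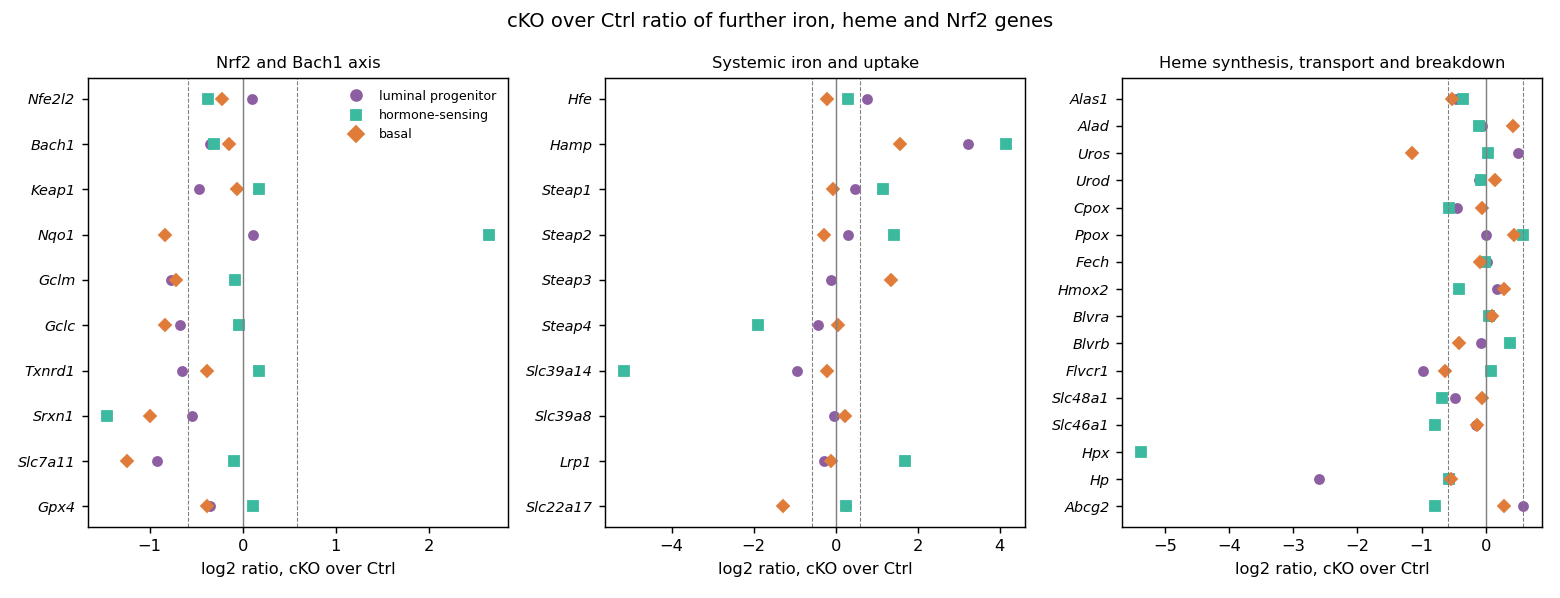
Log2 ratio of cKO over Ctrl for genes of 3 lists with at least 20 UMIs, in luminal progenitors (circles), hormone-sensing cells (squares) and basal cells (diamonds); the solid line marks no difference and the dashed lines 1.5-fold. Most progenitor and basal points of the Nrf2 and Bach1 axis lie left of 0, and the points farthest from 0 are those of hormone-sensing cells for Hpx, Slc39a14 and Hamp.

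A further list held 8 genes linked to NF-kB and STAT3 signalling, which can induce Lcn2. Of these 8 genes, 0 passed 1.5-fold in progenitors, where 7.3% of all genes were higher and 13.1% lower. A count of 0 is thus near the background. In basal cells 2 of the 8 were higher in cKO (Cebpd, Socs3) and 0 lower, where 9.51% of all genes were higher and 9.17% lower. Stat3 was 1.27-fold lower there (1.19 to 1.36), short of 1.5-fold. Socs3, a feedback target of STAT3, was at 425 CPM in cKO and 194 CPM in Ctrl basal cells (2.19-fold higher, 2.07 to 2.30). Cebpd, a C/EBP transcription factor, was at 1550 CPM in cKO and 729 CPM in Ctrl (2.13-fold higher, 2.07 to 2.18). In hormone-sensing cells Socs3 was 1.72-fold higher and Il6ra, an interleukin 6 receptor chain, 2.53-fold lower in cKO.

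Across the 14 class and library points, the pairs of members most alike in pattern are given by Pearson r of log2(CPM + 1), as a description, since the points share libraries. The points were hormone-sensing, basal and blood endothelial cells, both progenitor states and the class with both luminal sets in each library, with high endothelial venule and lymphatic cells of cKO alone. Ftl1 and Hmox1 had r = 0.95, Lcn2 and Trf 0.93, Ltf and Lcn2 0.81 and Fth1 and Ftl1 0.80. Among 9652 genes the patterns most like Ltf were those of Plb1 (0.987), Muc1, Atp6v1b1, Slc5a1 and Barx2. Those most like Lcn2 were Fam83a (0.989), Itgb8, Pdxk, Ikzf2 and Wnt5b. Hmox1 was most like Hspa8 (0.976), a heat shock cognate gene, and Scaf8. Ftl1 was most like Stip1 (0.971), a co-chaperone gene, and Xpot, and Fth1 most like Hspe1 (0.962), a mitochondrial chaperonin gene, and Ubtf. Trf was most like G0s2 (0.963) and Rps15a, and Tfrc most like Bag5 (0.978) and Wdr3. Slc40a1 was most like Tbc1d4 (0.906) and Ndst2, and Slc11a2 most like Bak1 (0.905) and Ldlrad4.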

How the data were processed

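Counts, whole numbers of UMIs per gene and barcode with no normalization, were deposited for 2 libraries, made with 10x Chromium 3′ v2 per the labels. Per the submitters' processing notes, the authors used Cell Ranger 2 and mm10, while the file headers give software version 3.0.0. The files held 6257 cKO barcodes (103668011 UMIs) and 4237 Ctrl barcodes (95520633 UMIs). Cells with at least 500 genes and at most 10% mitochondrial UMIs were kept, and Scrublet calls (55 cKO, 1.00%, and 27 Ctrl, 0.790%) were removed. Classes were gated on the mean log level of marker genes, with cuts set after the marker distributions were seen. For each class, the counts of a library were added up and given per 1000000 UMIs (CPM). Intervals were exact Poisson for levels, conditional binomial for ratios and Clopper-Pearson for shares. Of these, only the intervals for ratios were checked on simulated data, drawn as Poisson counts. That check could not show error from an uneven spread of UMIs over cells. Shares of cells were taken after thinning to 1000 UMIs.

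The genes and lists were chosen with earlier results of these data known. Named genes were all 9 members, up to 3 genes per list and epithelial class with the ratio farthest from 1 and at least 50 UMIs, and the most alike patterns over genes of at least 10 CPM in some class; further genes named beside small counts were chosen after their values were seen. Classes are rebuilt from markers and may differ from the study's own. Hjv was found under the name Hfe2. Alternatives were other scalings (edgeR 4.0.16 TMM), filters, gates, clusters (scanpy 1.11.5) and divisions of progenitors. Some results are not reported here.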

Additional observations from a re-analysis of the deposited data

Results flagged for a closer look

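Lcn2 and Cp had cKO over Ctrl ratios on opposite sides of 1.5-fold in different classes, and with 1 library per group the difference between classes was not tested. The Lcn2 ratio was 2.33 in blood endothelial cells, against 0.315 in hormone-sensing cells and 0.509 in basal cells. In blood endothelium 4 of 125 cKO cells held 50% of the cKO UMIs. Its log2 Lcn2 ratio was −0.12 when cells with another class's markers above 50% of that class's cut were left out. The blood endothelial shares of Lcn2 also served above as the background for hormone-sensing cells. The Cp ratio was 1.5 in blood endothelial cells (119 UMIs in cKO and 40 in Ctrl), against 0.395 in hormone-sensing cells and 0.573 in cells with both luminal marker sets.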

How the results depend on the processing

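Of the 21 ratios past 1.5-fold, tried under 166 alternatives in all, 164 kept their direction and 157 were also past 1.5-fold. Sizes changed more often, a value counting as moved when it left its counting interval. Shares, tried at 2000 UMIs or without thinning, moved 244 times and stayed 80 times. Levels moved 129 times and stayed 207 times. State ratios moved 60 times, stayed 44 times and reversed 2 times. Ratios of cKO over Ctrl, past 1.5-fold or not, moved 88 times, stayed 252 times and reversed 2 times. The log2 ratio turned to −0.28 for basal Ltf without the 10 highest cells of each library, an alternative added after the data were seen, and to −0.12 for blood endothelial Lcn2 with the stricter gate, which left out cells with another class's markers above 50% of that class's cut, since cells above the cut itself were already out. Basal Ltf also fell short of 1.5-fold with clusters (0.44), doublet calls kept (0.22), the stricter gate (0.28) and the mean over cells (0.39), as did hormone-sensing Ltf at no more than 5% mitochondrial UMIs (0.58), hormone-sensing Trf with clusters (−0.50) and Ftl1 in the class with both luminal sets under TMM scaling (−0.50), which moved all genes of that class by 0.11. The log2 ratio of Trf in high over low Ctrl progenitors turned to −0.35 with the 2 clusters and −0.15 with Ceacam1 alone, both added after the data were seen. Counts of higher members became 0 in progenitors, hormone-sensing cells, the class with both luminal sets and basal cells at 2-fold, 1 in blood endothelium at 2-fold or with at least 100 UMIs, 2 in hormone-sensing cells with clusters, and 0 in basal cells with clusters or with at least 100 UMIs. Counts of lower members became 1 in progenitors and 3 in basal cells at 2-fold, and 1 in blood endothelium with at least 1 UMI in each library. Between progenitor states, the 2 members higher in both libraries became 0 when cells were divided on Ltf, by the 2 clusters or on Ceacam1 alone and 1 with the mean over cells, and the 1 lower member became 0 when divided on Ltf (Ltf-low cells as the high state, Ltf itself left out) and 2 by the clusters. With Ceacam1 alone the count of lower members stayed at 1, but the member changed. It was Fth1 (ratios of 0.655 in cKO and 0.621 in Ctrl), while Ltf was short of 1.5-fold (0.724 in cKO and 0.782 in Ctrl). The causes of these shifts were not tested. No paired analysis was possible because each group has 1 library, and for the same reason no replicate could be left out. Depth limits Slc40a1 everywhere and Ltf outside the progenitor-marked classes.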
